A study of Anopheles gambiae with 18 samples.

Results

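The transcripts described here encode the mitochondrial respiratory chain, the mitochondrial ATP synthase and the vacuolar-type proton pump (V-ATPase) of the *Anopheles gambiae* midgut. They were chosen by name: a transcript on the study's published male versus female list or midgut compartment list was a member where its name held "NADH", "ubiquino", "cytochrome c", "ATP synthase" or "vacuolar" and did not hold "P450". This gave 49 transcripts of the 3104 listed midgut transcripts that are on the array and of 14197 transcripts on the array in all. There were 38 respiratory chain and ATP synthase transcripts, 9 V-ATPase subunits and 2 vacuolar sorting transcripts. The 38 comprised 13 of complex I, 1 of complex II, 5 of complex III, 1 named as a subunit of cytochrome c oxidase, 5 named cytochrome c with no further detail, 10 of the ATP synthase and 3 others. Of the 49, 46 stood on the male versus female list. The other 3 (EN010662, EN026677 and EN027072), together with EN013212 of that list, had been listed by the study because a compartment ratio reached 2-fold. The compartment and direction of that ratio were not used here. A large ratio of these 4 in a compartment may therefore follow from how they were listed and is no separate evidence. Transcripts are given by the ENSEMBL identifier with "SANGT00000" left out.

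Midguts came from adult mosquitoes of the Keele strain, kept on sucrose and not blood-fed, which the labels give as 4 days old on all but 1 array (anterior replicate 1, with no age). Each of 18 arrays compared a Cy5-labeled sample with a Cy3-labeled reference, and each of 6 comparisons had 3 arrays. One set male midgut against female midgut. In 4 others a compartment (the cardia at the front, the anterior midgut, or the anterior-posterior or posterior-posterior part behind it) was set against the whole midgut of females, and in the last the cardia was set against posterior midgut. Whole midgut RNA also holds the RNA of the compartment set against it, the 4 compartments share this kind of reference, and dyes were not swapped, which means that dye bias at a probe and a difference between samples cannot be told apart. How many guts were pooled for a sample is not given in the sources used here.

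In mitochondria, complexes I and II pass electrons to ubiquinone, complex III passes them to cytochrome c, and cytochrome c oxidase passes them to oxygen. The protons that complexes I, III and the oxidase pump out return through the ATP synthase, which makes ATP. The V-ATPase is built on a similar rotary plan but runs in the other direction: its outer V1 sector splits ATP and its membrane V0 sector pumps protons. In the midgut of mosquito larvae and of the hornworm Manduca sexta, V-ATPase in the plasma membrane of epithelial cells energises ion and nutrient transport.

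Values are log2 ratios from which each array's median over the male versus female list (1937 transcripts, called the list median) was subtracted, so that 0 is the ratio of a typical transcript of that list and 1 is a 2-fold higher level in the sample named before "versus". Replicates differed in reliability. The 3 cardia versus whole midgut arrays did not resemble each other (r over the listed transcripts between -0.05 and 0.06, against 0.48 to 0.77 for the anterior arrays). They had values for 46, 44 and 49 of the 49 transcripts, and the median SD of a listed transcript was 0.80 there and 0.29 to 0.62 in the other comparisons. The fit used 1 spread for all comparisons, which makes p-values too small for cardia versus whole midgut and, to a lesser degree, for the anterior-posterior compartment, whose spread was the next widest. Conversely, it tends to make p-values too large where the median SD was narrow. That SD was 0.29 in cardia versus posterior, 0.33 in male versus female midgut and 0.42 in the anterior. Array 3 of the anterior-posterior comparison (r of 0.30 and 0.32 with its replicates) and array 2 of the posterior-posterior comparison (r of 0.18 and 0.14) also stood apart. Spot signals were not analysed here. Linear ratios that lay within 0.00051 of a small fraction, with at most 10 below the bar, were counted; whether they mark low signal was not tested, and some arise by chance. These made up 6.44% of the ratios of the 46 members on the male versus female list, 29.4% of those of the 3 other members and 16.9% of those of all listed transcripts. In cardia versus whole midgut alone the share was 21.8% for the 46 members and 25.2% for all listed transcripts. The 46 members had 2.13% to 5.67% in the other comparisons. In bulk tissue, fewer cells of a type and less RNA per cell cannot be told apart.

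A transcript was called where its mean differed by at least 2-fold and limma's Benjamini-Hochberg adjusted p was under 0.05. None of the 49 was called between male and female midguts, where 4.9% of all tested transcripts were. There were 2 calls in cardia versus whole midgut (background 2.86%), 0 in the anterior (background 5.03%), 2 in the anterior-posterior compartment (background 14.1%), 0 in the posterior-posterior compartment (background 0%) and 0 in cardia versus posterior midgut (background 4.32%). The 2 of 49 called in the cardia or the anterior-posterior compartment were 4.08% of the members, near the background in the former and under it in the latter. At an unadjusted p under 0.05, the male versus female comparison had 1 member higher and 3 lower in males (background 25.7%), the cardia 5 higher and 3 lower (background 19.2%), the anterior 4 higher and 2 lower (background 33.5%), the anterior-posterior compartment 11 higher and 1 lower (background 38.3%), the posterior-posterior compartment 16 higher and 2 lower (background 19.2%) and cardia versus posterior midgut 0 higher and 2 lower (background 22.8%). The methods' t-test followed by Benjamini-Hochberg adjustment called 0 members in all 6 comparisons. The counts of calls depended on the centring: with arrays centred on all transcripts, 19 members were called higher in the anterior and 32 in the anterior-posterior compartment, where 19.9% and 28.4% of all tested transcripts were called in either direction, and without centring 38 were called lower in the cardia and 9 in the anterior-posterior compartment, where 74.5% and 61.6% were. The identity of the called members depended on single arrays: without array 3 of the anterior-posterior comparison 5 other members were called (EN020091, EN022070 and EN024665 higher, EN026677 and EN027072 lower), and without array 1 or 2 none. In the cardia the calls were EN014930 and EN022070 without array 1, EN008399 and EN026964 without array 2, and EN008399, EN011012 and EN018565 without array 3. The share of all tested transcripts called with an array left out was not counted, so these counts have no background.

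**Figure D1:**
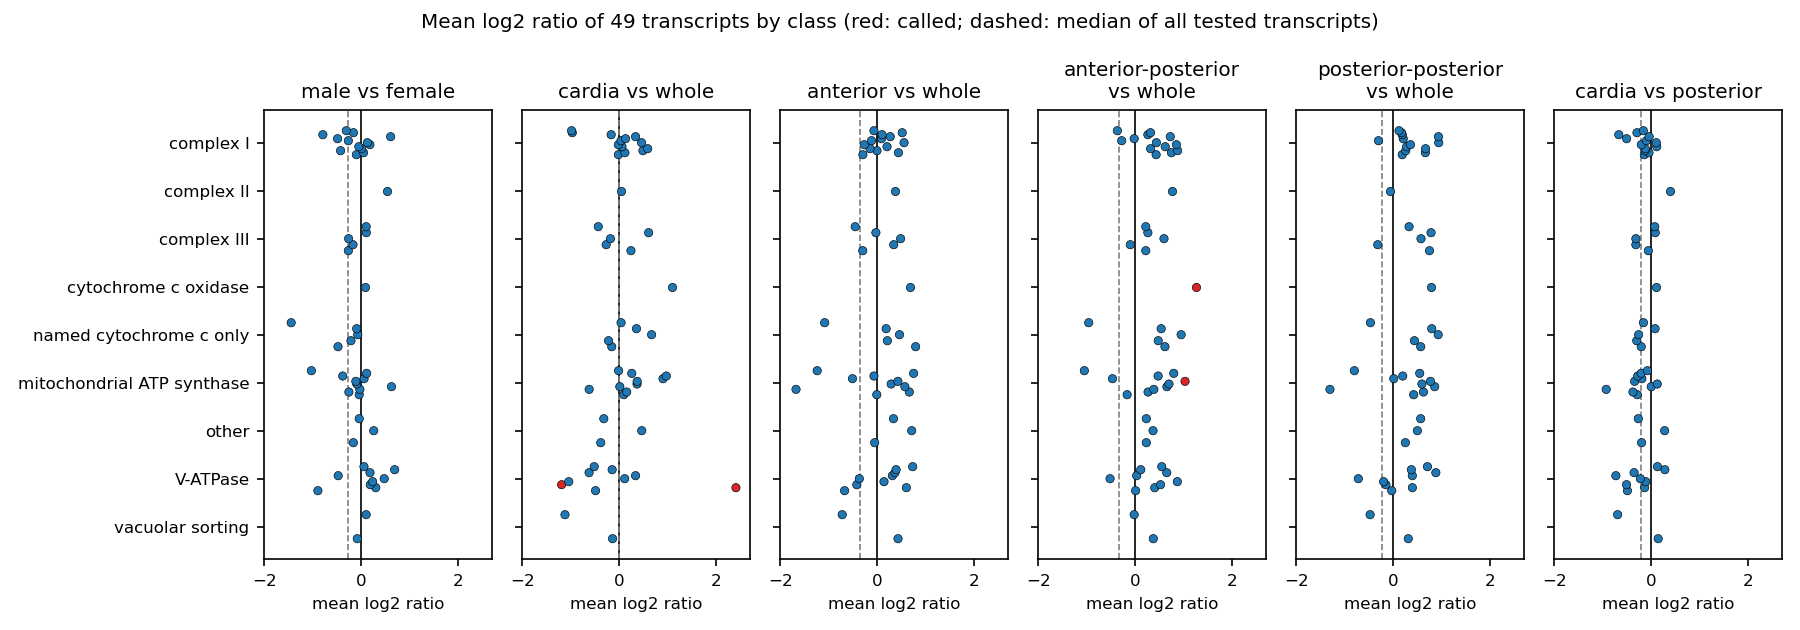
Mean log2 ratio over 3 arrays (x axis) of each of the 49 transcripts (points), by class (rows) in each comparison (panels). The solid line is the list median and the dashed line the median of all tested transcripts, and the 4 called means are red; in the 2 posterior compartments most points lie right of the solid line, which holds for this centring.

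Relative to the list median, the respiratory chain and ATP synthase transcripts stood a little higher in the posterior compartments and a little lower in cardia versus posterior midgut, and the former sign turned without centring and the latter when arrays were centred on all transcripts. In the posterior-posterior compartment, the mean was above 0 for 32 of 38, with a median of 0.43 and the middle range of members from 0.19 to 0.67, where 49.9% of the list was above 0. In the anterior-posterior compartment it was above 0 for 30 of 38, with a median of 0.41, against 49.7% of the list. The anterior had 22 of 38 above 0 with a median of 0.20, against 47.4% of the list, and the cardia 24 of 38 with a median of 0.08, against 49.7%. Set directly against posterior midgut, the cardia had 10 of 38 above 0 and a median of -0.16, against 48.1% of the list. In males versus females, 13 of 38 were above 0, with a median of -0.09, against 48.5% of the list. These directions depended on the centring: as deposited, without centring, the medians were -0.40 in the posterior-posterior, -0.57 in the anterior-posterior, -0.15 in the anterior, -1.36 in the cardia, -0.16 in cardia versus posterior and -0.08 in male versus female midgut, and with arrays centred on all transcripts they were 0.91, 1.29, 0.99, 0.17, 0.06 and 0.59. The median of all tested transcripts was itself -0.23, -0.33, -0.36, 0.00, -0.20 and -0.27 on the scale used here, in the same order.

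**Figure D2:**
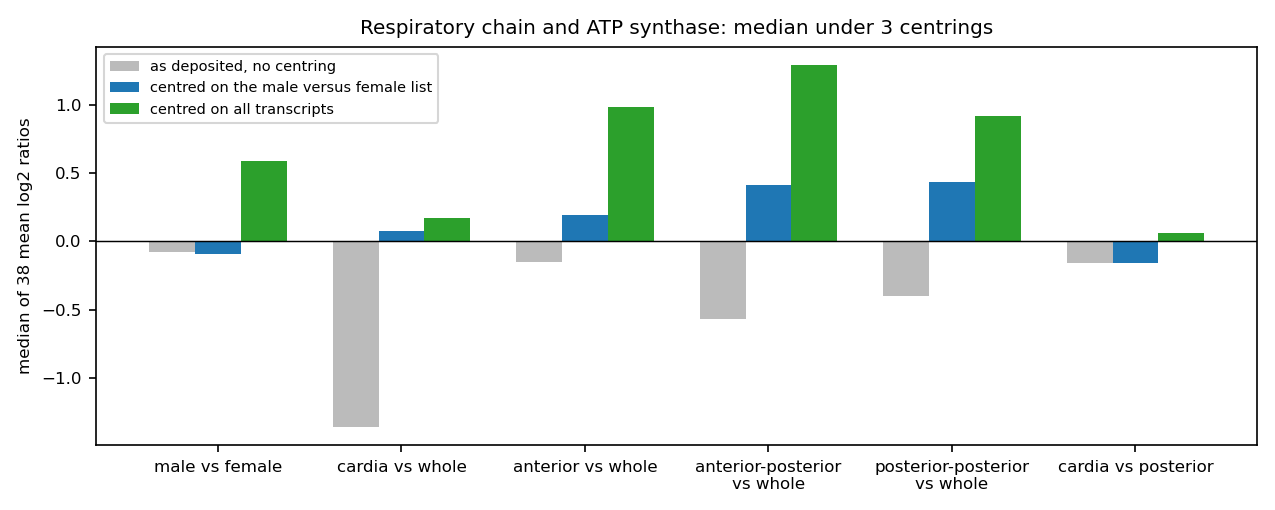
Median of the mean log2 ratios of the 38 respiratory chain and ATP synthase transcripts (y axis) in each comparison, with no centring (grey), centred on the male versus female list (blue) and centred on all transcripts (green). In all 4 compartments set against whole midgut the median was negative without centring and positive under both centrings.

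Relative to the list, the posterior-posterior members at an unadjusted p under 0.05 were mostly higher, as 16 of 49 were, where 11.5% of the list was higher at that p. The anterior-posterior count was 11 of 49 (list background 17%) and the anterior count 4 of 49 (list background 12.5%). Array by array, the median of the 38 transcripts was 0.69, 0.12 and 0.52 in the posterior-posterior compartment, 0.76, 0.53 and -0.06 in the anterior-posterior compartment and 0.18, 0.23 and 0.10 in the anterior. In each posterior compartment the lowest of these medians was that of the array that stood apart. In cardia versus posterior midgut the 3 arrays gave -0.08, -0.14 and -0.18. The cardia versus whole midgut arrays gave -0.26, 0.03 and 0.65, and the male versus female arrays 0.07, -0.32 and -0.12, so that the sign varied among replicates in these comparisons.

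**Figure D3:**
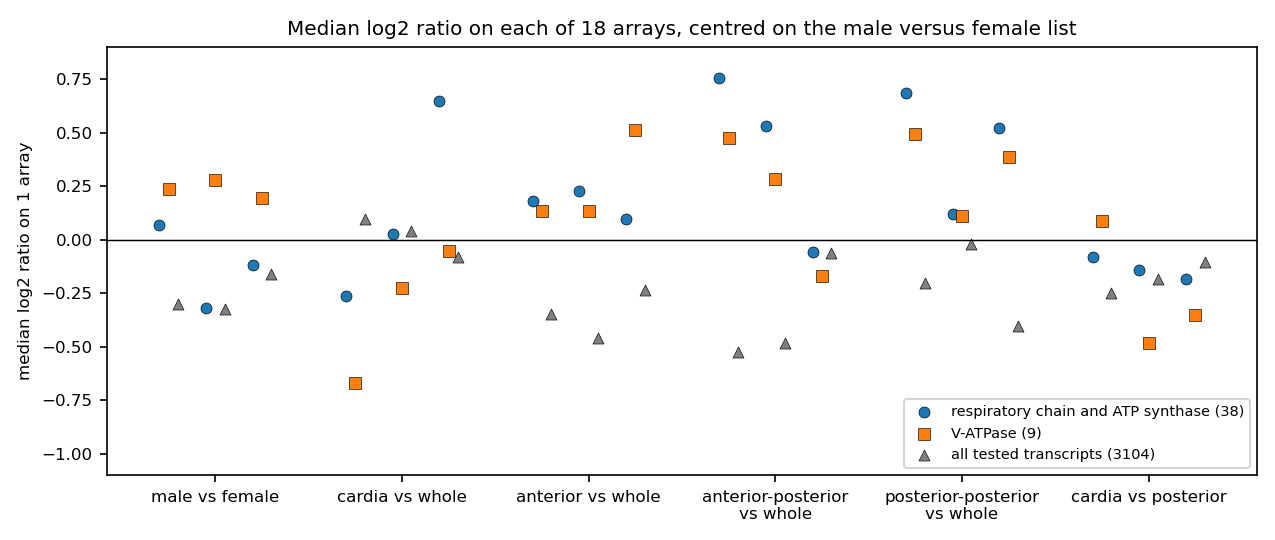
Median log2 ratio on each array (points, 3 a comparison in replicate order) of the 38 respiratory chain and ATP synthase transcripts, the 9 V-ATPase transcripts and the 3104 tested transcripts, with the male versus female list at 0. The respiratory medians were above 0 on all 3 arrays of the anterior and posterior-posterior comparisons and on 2 of 3 in the anterior-posterior comparison.

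No difference between the posterior parts passed the test. The contrast of the anterior-posterior ratio with the posterior-posterior ratio had a median of 0.02 over the 38 transcripts, no call and 1 member at an unadjusted p under 0.05 (backgrounds 0% and 4.64%). The anterior set against the mean of both posterior parts had a median of -0.27 with 9 of 38 above 0, where 47.4% of the list was, no call and 1 member at that p (backgrounds 0% and 4.8%). That member was EN014833, the B22 subunit of complex I, at -0.87 (standard error 0.38, adjusted p = 0.999).

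Complex I, the NADH dehydrogenase through which most electrons enter the chain, had 12 of 13 transcripts above the list median in the posterior-posterior compartment and 2 of 13 in cardia versus posterior midgut, with medians of 0.26 and -0.13 (-0.57 and -0.11 without centring, 0.74 and 0.08 centred on all transcripts), and no call. The 13 kDa A subunit EN016606 read 1.38, 0.49 and 0.95 in the posterior-posterior compartment, a mean of 0.94 ± 0.45 (SD, n = 3; limma adjusted p = 0.111). The 20 kDa subunit EN019428 (PSST), which carries an iron-sulfur cluster next to the quinone site, read 1.05, 0.76 and 0.99, a mean of 0.94 ± 0.16 (adjusted p = 0.146). All 3 arrays were thus above the list median for both subunits. That median was -1.18 on array 2, so that the deposited log2 ratios of both were below 0 there. In the anterior-posterior compartment the B17.2 subunit EN013247 read 0.33, 0.85 and 1.45, a mean of 0.88 (adjusted p = 0.069), and EN014833 read 1.14, 0.41 and 1.01, a mean of 0.85 (adjusted p = 0.065). The 23 kDa subunit EN012187 (TYKY), another iron-sulfur protein, read 0.96, 0.86 and 0.43 there, a mean of 0.75 (adjusted p = 0.075). These 3 were above 0 on every array of that compartment and missed both limits of the call.

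The 24 kDa subunit EN019442 is an iron-sulfur protein of the NADH-binding arm. It read -0.38, -1.18 and -0.81 in males versus females, a mean of -0.79 ± 0.40 (limma adjusted p = 0.113). In cardia versus posterior midgut it read -0.59, -0.76 and -0.65, a mean of -0.67 ± 0.08 (adjusted p = 0.201). The study also lists this transcript for a 2-fold ratio in that comparison, from the same arrays, so the listing is no separate evidence. Its anterior, anterior-posterior and posterior-posterior means were 0.10, 0.26 and 0.19, with replicates of both signs in each. The ESSS subunit EN017907 read -0.02, -0.90 and -0.60 in cardia versus posterior midgut, a mean of -0.51 (adjusted p = 0.382). In males versus females its arrays lay close together, at -0.43, -0.53 and -0.49 (adjusted p = 0.379).

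A mitochondrial acyl carrier protein is at once a subunit of complex I and a carrier of growing fatty acids, and 2 transcripts bear its name. In the cardia EN013726 read 0.24, 0.87 and 0.66, a mean of 0.59 ± 0.32 (limma adjusted p = 0.301), while EN026964 read -1.91, 0.87 and -1.89, a mean of -0.98 ± 1.60 (adjusted p = 0.155). In the posterior-posterior compartment their means were 0.67 and 0.12. In cardia versus posterior midgut their means were -0.12 and -0.16. The 13 kDa A subunit EN016606 read 0.23, 0.19 and 0.98 in the cardia, a mean of 0.46 (adjusted p = 0.352). Since the cardia arrays did not resemble each other, these cardia means are given as values.

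Complex II was represented by the membrane anchor CybS of succinate dehydrogenase, EN019261, the 1 member whose ratios differed between the posterior parts at an unadjusted p under 0.05. It read 1.09, 0.68 and 0.53 in the anterior-posterior compartment, a mean of 0.77 ± 0.29, under 2-fold with a limma adjusted p of 0.048. In the posterior-posterior compartment it read -0.03, -0.24 and 0.08, a mean of -0.06 (adjusted p = 0.89). No array of the second group reached the lowest of the first. The contrast was 0.83 (standard error 0.36, unadjusted p = 0.033, adjusted p = 0.999). EN019261 was also among the higher members in males, at 0.62, 0.84 and 0.13, a mean of 0.53 (adjusted p = 0.20), and had the highest mean of the 38 in cardia versus posterior midgut, 0.38 (adjusted p = 0.40).

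Complex III, which hands electrons from ubiquinol to cytochrome c, had 4 of 5 transcripts above 0 in each posterior compartment and a median of 0.57 in the posterior-posterior one (-0.25 without centring, 1.06 centred on all transcripts). The hinge protein EN021887 read 0.87, 0.65 and 0.82 there, a mean of 0.78 ± 0.11 (limma adjusted p = 0.15). It was also even in the cardia, at 0.49, 0.53 and 0.80, a mean of 0.61 ± 0.17 (adjusted p = 0.214). The core 2 protein EN020419 averaged 0.49, 0.60 and 0.57 in the anterior, anterior-posterior and posterior-posterior compartments and -0.32 in cardia versus posterior midgut. The Rieske iron-sulfur protein EN019464 gave -0.10 and -0.32 in the posterior compartments. In males versus females the 5 transcripts lay between -0.26 and 0.11.

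Cytochrome c oxidase was represented by subunit VIIa, EN019912, the 1 member of the respiratory chain that was called. In the anterior-posterior compartment it read 0.95, 0.95 and 1.85, a mean of 1.25 ± 0.52, and was called (limma adjusted p = 0.019). Its means were 0.68 in the anterior (arrays 0.18, 0.74 and 1.12, adjusted p = 0.13) and 0.77 in the posterior-posterior compartment (arrays 1.45, -0.14 and 1.00, adjusted p = 0.19). In the cardia only 2 arrays had a value, 0.95 and 1.22, a mean of 1.08 (adjusted p = 0.12). Directly against posterior midgut the cardia read 0.32, 0.16 and -0.18, a mean of 0.10, and males against females 0.41, -0.01 and -0.18, a mean of 0.07. The anterior-posterior call was lost when any 1 array was left out (adjusted p of 0.070, 0.074 and 0.058), in a fit of that comparison's arrays alone (adjusted p = 0.126) and without centring, where the mean was 0.27.

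The 5 transcripts named cytochrome c carry no further detail, and the study's list of cardia peptides names 1 of them, EN022070, as the oxidase subunit Va. Of the 5, 4 had means above the list median in both posterior compartments. EN022070 read 1.20, 1.09 and 0.55 in the anterior-posterior compartment, a mean of 0.95 ± 0.35 (limma adjusted p = 0.055), and 1.39, 0.42 and 0.98 in the posterior-posterior compartment, a mean of 0.93 ± 0.49 (adjusted p = 0.163). EN020091, EN021712 and EN023200 averaged 0.62, 0.48 and 0.54 in the anterior-posterior and 0.57, 0.44 and 0.80 in the posterior-posterior compartment. The exception was EN027072, which is listed only for a compartment ratio. It read -0.52, -0.64 and -3.16 in males versus females, a mean of -1.44 ± 1.49 (adjusted p = 0.231), and -0.63, -2.04 and -0.58 in the anterior, a mean of -1.08 ± 0.83 (adjusted p = 0.295). Its anterior-posterior arrays ran from -3.31 to 1.55. Of its 17 ratios, 35.3% equalled a small fraction.

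Of the mitochondrial ATP synthase, 8 transcripts stood on the male versus female list, with means between -0.51 and 1.03 over the 6 comparisons, and the other 2 (beta and epsilon) reached lower values. The d subunit EN012669, part of the stalk that holds the catalytic head still, was called in the anterior-posterior compartment: it read 1.06, 0.91 and 1.12, a mean of 1.03 ± 0.11 (limma adjusted p = 0.029). Its posterior-posterior arrays were 0.66, 0.77 and 0.88, a mean of 0.77 ± 0.11 (adjusted p = 0.18), and its cardia versus posterior arrays -0.28, -0.26 and -0.49, a mean of -0.34 (adjusted p = 0.53). All 3 replicates lay close together in each of these. The anterior-posterior call was lost without any 1 array (adjusted p of 0.149, 0.118 and 0.0515), in a fit of those arrays alone (adjusted p = 0.133) and without centring, where the mean was 0.05.

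The alpha subunit EN023676, which with beta forms the catalytic head, read 1.32, 0.59 and 0.48 in the anterior-posterior compartment, a mean of 0.80 ± 0.46, under 2-fold with a limma adjusted p of 0.045. It read 0.49, 0.76 and 1.01 in the anterior, a mean of 0.75 (adjusted p = 0.077), and 0.66, 0.40 and 0.59 in the posterior-posterior compartment, a mean of 0.55 (adjusted p = 0.26). All 9 of these arrays were above 0 on this centring. The list medians subtracted on the posterior-posterior arrays were -0.83, -1.18 and -0.47, so that some of the deposited values were below 0. The beta subunit EN026677 went the other way. It read -1.76, -1.41 and -0.54 in the anterior, a mean of -1.24 ± 0.63 (adjusted p = 0.065), and -1.40, -1.44 and -0.31 in the anterior-posterior compartment, a mean of -1.05 ± 0.64 (adjusted p = 0.069). In males versus females it read -0.82, -1.14 and -1.11, a mean of -1.03 ± 0.18 (adjusted p = 0.118, and 0.025 in a fit of those arrays alone). EN026677 is listed only for a compartment ratio, and 28% of its 50 ratios equalled a small fraction. It has 3 features on the array, whose male versus female means were -1.08, -1.27 and -0.72 and whose cardia versus posterior means were 0.23, -0.51 and -0.36, so that the features agreed in sign in the former and not in the latter.

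The epsilon subunit EN010662, a small protein of the rotating central stalk, was the lowest of the 49 in the anterior. It read -1.33, -1.78 and -1.91 there, a mean of -1.67 ± 0.31 (limma adjusted p = 0.081, and 0.024 in a fit of the anterior arrays alone). The posterior-posterior arrays were -2.20, -0.12 and -1.59, a mean of -1.30 ± 1.07 (adjusted p = 0.239), and the cardia versus posterior arrays -0.67, -0.92 and -1.20, a mean of -0.93 ± 0.27 (adjusted p = 0.369). In the anterior-posterior compartment it read -0.66, -0.75 and 2.57, a mean of 0.39, with array 3 apart from the others. This transcript too is listed only for a compartment ratio, and 27.8% of its 18 ratios equalled a small fraction. EN010662, EN026677 and EN027072 were the 3 lowest of the 38 in the anterior. With arrays centred on all transcripts their anterior means were -0.88, -0.45 and -0.29.

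Other ATP synthase subunits stayed within 1 of the list median in every comparison. The delta subunit EN018565 read 1.86, 1.18 and -0.12 in the cardia, a mean of 0.97 ± 1.00 (limma adjusted p = 0.086), and the proteolipid c EN014930, whose ring turns in the membrane, read -0.46, 1.02 and 2.16, a mean of 0.91 ± 1.31 (adjusted p = 0.22). OSCP, EN011882, which ties head to stalk, averaged 0.63 in males versus females (arrays 1.00, 0.86 and 0.03, adjusted p = 0.28) and 0.86 in the posterior-posterior compartment (arrays 0.96, 0.16 and 1.45, adjusted p = 0.21).

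**Figure D4:**
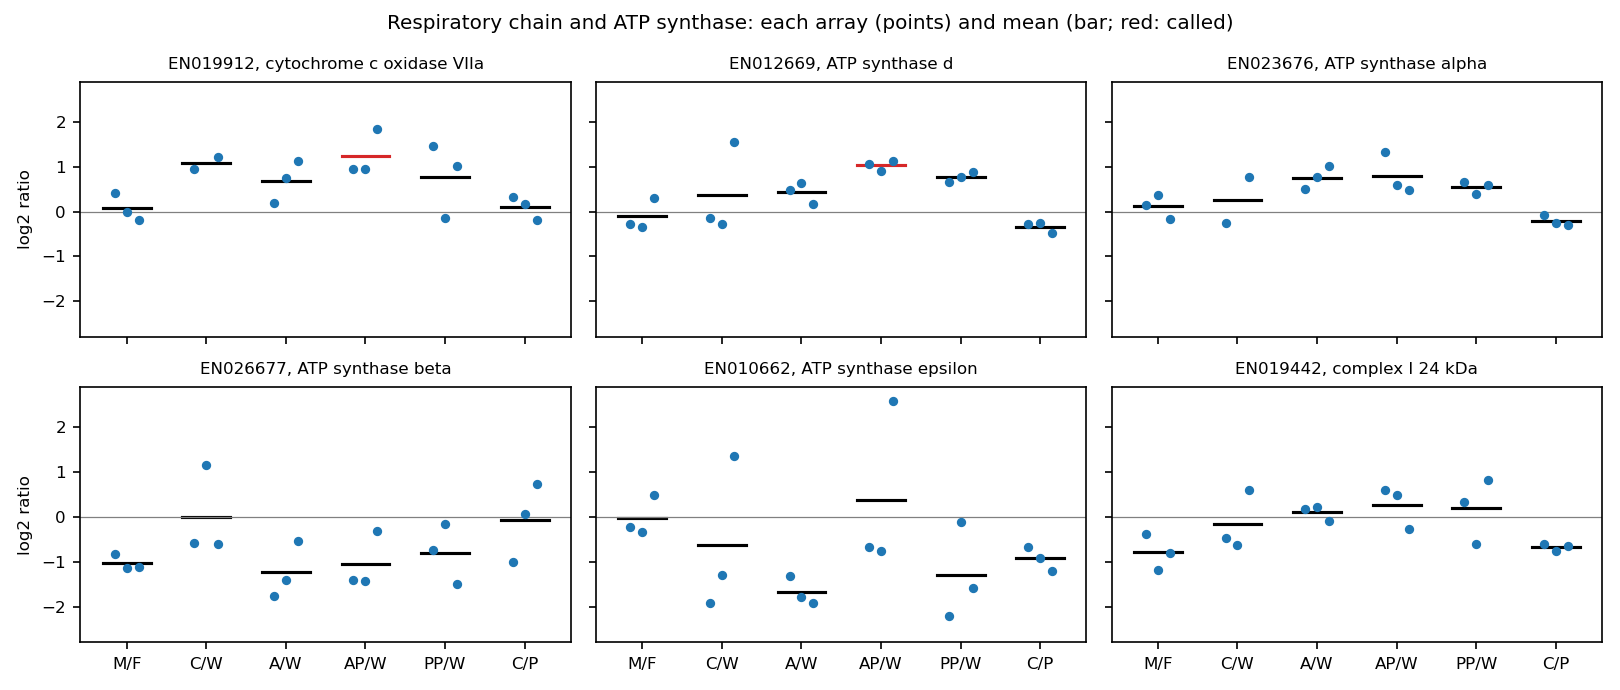
Log2 ratio on each array (points) and mean (bar, red where called) of 6 respiratory chain and ATP synthase transcripts, in males over females (M/F), cardia (C), anterior (A), anterior-posterior (AP) and posterior-posterior (PP) compartments over whole midgut (W), and cardia over posterior midgut (C/P). EN019912, EN012669 and EN023676 lay above 0 on all anterior-posterior arrays, where EN026677 lay below 0.

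The 9 V-ATPase transcripts did not move as a block. Their median was 0.19 in males versus females, -0.49 in the cardia, 0.31 in the anterior, 0.40 in the anterior-posterior, 0.38 in the posterior-posterior compartment and -0.22 in cardia versus posterior midgut, with 7, 3, 6, 8, 5 and 2 of 9 above 0. Without centring these medians were 0.20, -1.92, -0.03, -0.58, -0.45 and -0.21, and centred on all transcripts 0.87, -0.39, 1.10, 1.28, 0.86 and -0.01, so that the medians in the male versus female, cardia and cardia versus posterior comparisons kept their sign under all 3 settings and those in the other 3 compartments did not. The 2 calls were both in cardia versus whole midgut and of opposite direction.

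In the V0 sector, the 116 kDa subunit a, which forms part of the path for protons and whose isoforms in yeast and mammals direct the pump to different membranes, has 3 transcripts of the same name. EN008399 was called higher in the cardia, with arrays of 5.14, 0.90 and 1.20, a mean of 2.41 ± 2.37 (limma adjusted p = 0.029). The call rested on array 1: without it the mean was 1.05 (limma adjusted p = 0.171), and the deposited ratio on that array, 14.7, equalled a small fraction within the tolerance. The deposited log2 ratios on arrays 2 and 3 were -0.29 and -0.67, so that these 2 arrays were positive only after centring. In a fit of the cardia arrays alone its adjusted p was 0.957, and without centring the mean was 0.98 (adjusted p = 0.133). In cardia versus posterior midgut EN008399 read 0.20, -0.48 and -0.13, a mean of -0.14 (adjusted p = 0.93). In the anterior it read 0.26, 0.62 and 0.93, a mean of 0.60 ± 0.34 (adjusted p = 0.448).

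EN024665, the next a-subunit transcript, was above the list median in the posterior-posterior compartment on all arrays, at 1.14, 0.78 and 0.72, a mean of 0.88 ± 0.22 (limma adjusted p = 0.146). It read 1.19, 0.94 and -0.17 in the anterior-posterior compartment and -1.23, -0.72 and 0.09 in the cardia, with means of 0.65 and -0.62. EN025824 read 0.93, 0.70 and 0.45 in males versus females, a mean of 0.69 ± 0.24 (adjusted p = 0.075, the lowest of the 49 in that comparison). Its cardia arrays were -0.15, -0.23 and -0.05, a mean of -0.14 ± 0.09 (adjusted p = 0.761), and its anterior, anterior-posterior and posterior-posterior means 0.39, 0.12 and 0.38. Differences among the 3 a-subunit transcripts were not tested.

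The proteolipids of the V0 rotor ring also differed. The 16 kDa subunit c EN029377 read 0.34, 0.43 and 1.44 in the anterior, a mean of 0.73 ± 0.61 (limma adjusted p = 0.095), 0.92, 0.56 and 0.17 in the anterior-posterior compartment, a mean of 0.55 ± 0.37 (adjusted p = 0.157), and 1.13, 0.55 and 0.44 in the posterior-posterior compartment, a mean of 0.71 ± 0.37 (adjusted p = 0.186). All 9 arrays were above 0 on this centring. The list medians subtracted on the posterior-posterior arrays were -0.83, -1.18 and -0.47, so that some of the deposited values were below 0. The 21 kDa proteolipid EN003500 read -1.09, -0.82 and -0.77 in males versus females, a mean of -0.89 ± 0.17 (adjusted p = 0.13), and -0.43, -0.68 and -0.91 in the anterior, a mean of -0.67 ± 0.24 (adjusted p = 0.189). Cardia versus posterior arrays were -0.78, -0.04 and -0.65, a mean of -0.49 (adjusted p = 0.452). With arrays centred on all transcripts its anterior mean changed sign, to 0.12.

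In the V1 sector, subunit H EN011012, which in yeast is needed for activity and silences V1 once it has come off the membrane, was called lower in the cardia. It read -1.19, -1.71 and -0.65, a mean of -1.19 ± 0.53 (limma adjusted p = 0.021). Directly against posterior midgut the cardia read -0.57, -0.55 and -0.41, a mean of -0.51 ± 0.08 (adjusted p = 0.252), so that all 6 cardia arrays were below 0, though under 2-fold in the second set. Its anterior arrays were -0.60, -0.23 and -0.42, a mean of -0.42 ± 0.18 (adjusted p = 0.25), and its anterior-posterior arrays 0.38, 0.41 and 0.79, a mean of 0.52 ± 0.23 (adjusted p = 0.144). The cardia call was lost without array 1 or array 2 (adjusted p of 0.058 and 0.057), centred on all transcripts (adjusted p = 0.056), with all transcripts tested (adjusted p = 0.052) and in a fit of those arrays alone (adjusted p = 0.957).

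Subunits A and B form the ATP-splitting ring of V1 and gave different readings. The catalytic subunit A EN022450 read -0.51, -0.79 and -0.88 in cardia versus posterior midgut, a mean of -0.73 ± 0.19 (limma adjusted p = 0.103). The study also lists it for that comparison, from the same arrays, so the listing is no separate evidence. Males versus females gave -0.22, -0.41 and -0.79, a mean of -0.47 (adjusted p = 0.24). The anterior and posterior-posterior means were 0.31 and 0.40, and the 2 cardia versus whole arrays with a value read 0.55 and 0.13. Subunit B EN018716 read -0.49, -1.34 and -0.32 in the posterior-posterior compartment, a mean of -0.72 ± 0.55 (adjusted p = 0.221), -0.43, -0.21 and -0.46 in the anterior, and 0.24, 0.90 and 0.30 in males versus females, a mean of 0.48 ± 0.37 (adjusted p = 0.353). Subunit G EN013212 of the outer stalk read 0.25, 0.19 and 2.18 in the anterior-posterior compartment, a mean of 0.87 ± 1.13 (adjusted p = 0.281), and -3.90, 0.92 and -0.14 in the cardia, and 27.8% of its 18 ratios equalled a small fraction.

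**Figure D5:**
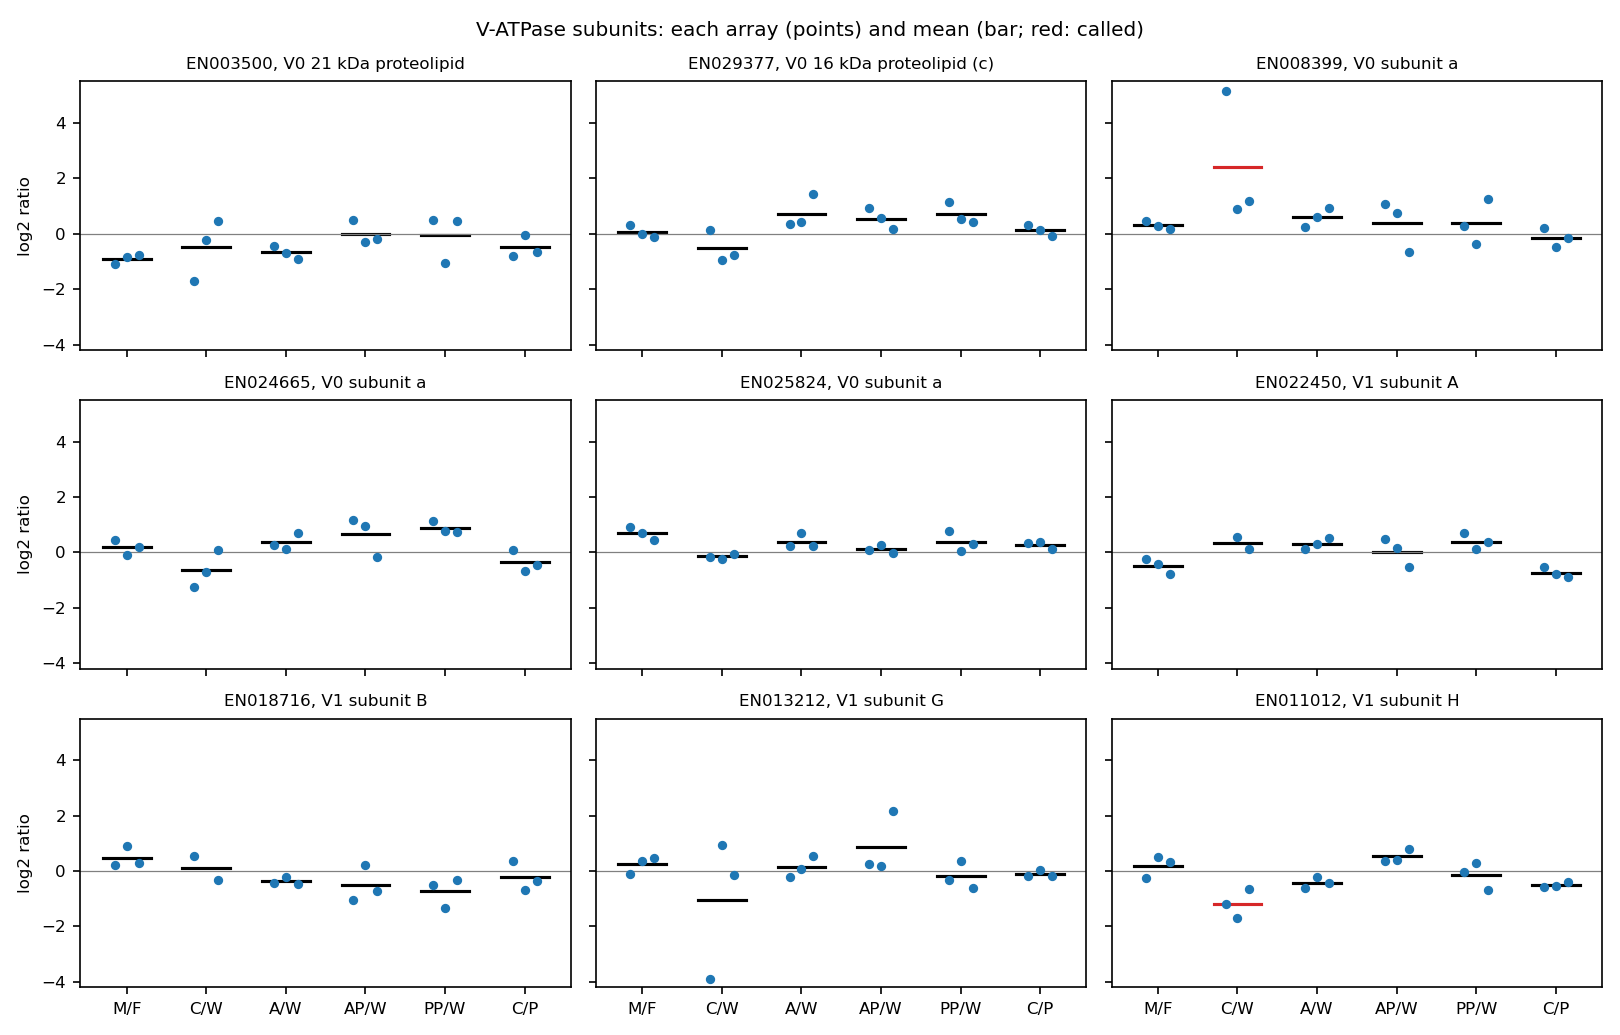
Log2 ratio on each array (points) and mean (bar, red where called) of the 9 V-ATPase transcripts, with comparisons abbreviated as M/F (male over female), C, A, AP and PP over W (compartment over whole midgut) and C/P (cardia over posterior). The cardia over whole arrays spread most, with EN008399 at 5.14 and EN013212 at -3.90 on array 1.

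The "vacuolar" transcripts that are no part of the pump, VPS29 EN015419 and VPS26 EN017705, belong to the retromer, which returns sorting receptors from endosomes. In the anterior EN015419 averaged 0.43 and EN017705 -0.72 (limma adjusted p of 0.35 and 0.23), and neither was called in any comparison. The remaining members were EN013487, which passes electrons from fatty acid oxidation to ubiquinone, EN012220 of ubiquinone synthesis and EN015028, an NADH-cytochrome b5 reductase that is no part of the chain. Their means lay between -0.38 and 0.71 over the 6 comparisons.

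The study's cardia versus posterior list names further transcripts in the same way. Of these, 7 carry such a name and are on neither of the lists used here, and 2 more (EN014885 and EN023651) have another name or none on the male versus female list and are left out of the values. The 7 were listed by the study for a 2-fold ratio in that comparison, so their median there, -0.97, follows from the choice. In the other comparisons their medians were -0.95 in males versus females, -0.65 in the cardia, -1.15 in the anterior, -0.997 in the anterior-posterior and -0.93 in the posterior-posterior compartment. These medians hold for the centring on the male versus female list, on which none of the 7 stands. That list's median lay above the median of all transcripts by 0.74, 1.12 and 0.50 on the anterior arrays. On the male versus female arrays it lay above by 0.57, 0.76 and 0.70. Centred on all transcripts, the values of the 7 there would be higher. Some bear the name of a member. The second subunit G transcript EN018502 averaged -1.15 in the anterior and -1.39 in males versus females (limma adjusted p of 0.073 and 0.047), where EN013212 averaged 0.14 and 0.24. The second subunit A transcript EN022345 averaged -1.24 in the anterior, where EN022450 averaged 0.31. Of the 7, EN018502 was the 1 called in males versus females (background 4.9%). In the anterior-posterior compartment it was EN022156, the 75 kDa subunit of complex I, at -1.37 (limma adjusted p = 0.049, background 14.1%). Subunit D of the V1 rotor, EN010517, was the 1 called in the cardia, at -1.67 ± 1.03 (adjusted p = 0.024, background 2.86%). It was also the 1 called in cardia versus posterior midgut, for which it was listed, at -1.71 (adjusted p = 0.012, background 4.32%). Of the ratios of these 7, 19.3% equalled a small fraction.

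Medians of other mitochondrial and ion transport lists are likewise relative to the list median. Among 13 further oxidative phosphorylation and mitochondrial carrier transcripts, the medians were 0.36 in the posterior-posterior and 0.37 in the anterior-posterior compartment and -0.06 in cardia versus posterior midgut, and among 15 mitochondrial ribosome transcripts the posterior-posterior median was 0.17. The 7 citric acid cycle transcripts had medians of 0.00 and 0.18 in these posterior parts, with 2 of 7 called lower in the anterior-posterior one, where 14.1% of all tested transcripts were called, and all 7 were below 0 in cardia versus posterior midgut, with a median of -0.46. The 4 uncoupling protein transcripts, whose products let protons back without making ATP, had medians between -0.89 and -0.49, with 1 of 4 called lower in each of the male versus female, anterior and anterior-posterior comparisons (backgrounds 4.9%, 5.03% and 14.1%). The 10 other ion transport transcripts, which were carbonic anhydrases, sodium pump subunits and a sodium/hydrogen exchanger, had medians between -0.36 and 0.13. A marker list of the muscle around the gut held 29 actin, myosin, tropomyosin and actinin transcripts, though actins and some myosins are also used by epithelial cells. The medians of the 29 were 0.25 in the anterior-posterior, -0.20 in the posterior-posterior and -0.26 in cardia versus posterior midgut. In the other comparisons they lay between -0.01 and 0.03. The part of muscle RNA in the members' values was not tested.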

How the data were processed

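The authors deposited log2 ratios of Cy5 to Cy3 per array feature, from GenePix scans. The methods describe a signal cut-off of 100 units and LOWESS normalization, but neither is visible in the deposited log2 values, and intensities were not used here. Values of 16.6, a placeholder in 120 spots, were taken as missing. The 15495 features were averaged to 14197 transcripts, and each array was centred on the median over the male versus female list (1937 transcripts). No column was without a sample. One limma fit (limma 3.58.1, R 4.3.3) over 18 arrays gave each comparison's mean, moderated p and Benjamini-Hochberg adjusted p over the listed transcripts with a value on at least 2 arrays, up to 3104 a comparison. The script was tested on simulated data, where the share of false calls was highest in cardia versus whole midgut and next highest in the anterior-posterior comparison, the 2 with called members. The methods call the 3 arrays biological replicas. Members, lists and centring were chosen with earlier results of these data known. Every member may be named; full values were given for called members and, in each comparison, for up to 3 respiratory and 3 V-ATPase members with the largest mean among those with the same sign on all 3 arrays, and others were added after their values were seen. Alternatives were other centrings, all transcripts tested, each comparison fitted alone, a value on all 3 arrays, a replicate block, the adjusted p alone, the methods' t-test and each array left out. Array ratios carry no counts, so the number of arrays limits precision. No sequence, coordinate or gene symbol is given, since the reference table used here does not hold these identifiers.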

Additional observations from a re-analysis of the deposited data

Results flagged for a closer look

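For 3 members every array of one comparison lay on one side of 0 and every array of another on the other side, and these differences were not tested unless a value is given. All members and all pairs of compartments were searched for this. The share of all listed transcripts with such a pattern was not counted, so the pattern is not shown to be particular to these members. V-ATPase subunit H EN011012 was lower in the cardia than in the anterior-posterior compartment by a difference of -1.71 (means -1.19 and 0.52) and lower in the anterior than in the anterior-posterior compartment by -0.94 (means -0.42 and 0.52). V-ATPase subunit a EN025824 differed by -0.54 between cardia and anterior (means -0.14 and 0.39) and by -0.52 between cardia and posterior-posterior compartment (means -0.14 and 0.38). The acyl carrier transcript EN026964 differed by -0.49 between the posterior parts (means -0.37 and 0.12), and the limma contrast of the same fit gave an unadjusted p of 0.371 and an adjusted p of 0.999. The compartments share the kind of reference, whole female midgut. These opposite sides depend on the centring. Without centring none of the 5 held, as EN011012 then read -0.66, -0.06 and -0.64 in the anterior-posterior compartment. With arrays centred on all transcripts 1 held, EN011012 in the cardia (-1.38, -1.64 and -0.25) against the anterior-posterior compartment (1.69, 1.53 and 1.00), while its anterior arrays read 0.14, 0.89 and 0.08.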

How the results depend on the processing

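Centring decided most counts of called members. With arrays centred on all transcripts, 3 members were called in male versus female midgut, 1 in the cardia, 19 in the anterior, 32 in the anterior-posterior and 4 in the posterior-posterior compartment, all higher, where 12.3%, 3.48%, 19.9%, 28.4% and 4.71% of all tested transcripts were called in either direction. Without centring 38, 2, 9 and 6 were called in the 4 compartments, all lower, where 74.5%, 30.1%, 61.6% and 50.1% were. Fitted on a comparison's arrays alone, male versus female midgut had 1 call (background 15.9%), the cardia 0 (0%), the anterior 2 (18.8%) and the anterior-posterior compartment 0 (0%). With all transcripts tested the cardia kept 1 call (background 1.41%) and the anterior-posterior compartment 2 (background 25.3%). By adjusted p alone the anterior-posterior compartment had 4. The methods' t-test at an unadjusted p of 0.05 or less with a 2-fold mean gave 1, 0, 1, 1 and 0 calls in male versus female, cardia, anterior, anterior-posterior and posterior-posterior comparisons. After Benjamini-Hochberg adjustment it gave 0 in the cardia and 0 in the anterior-posterior compartment. Leaving out 1 array gave 2 to 3 calls in the cardia and 0 to 5 in the anterior-posterior compartment. Shares over all tested transcripts are not given for the adjusted p alone, the t-test or the arrays left out, so those counts have no background. Cardia versus posterior midgut and both contrasts had 0 calls under every alternative run. Same-numbered arrays had deviations correlated at r over 0.1 in 6 of 45 pairs, 3 of them male versus female with posterior-posterior (0.29, 0.13 and 0.24), while anterior-posterior with posterior-posterior gave -0.12, -0.31 and -0.48. The numbers were not taken as pairs, and with the replicate block the members called were 0, 2, 0, 2, 0 and 0. The backgrounds with that block were 1.61%, 2.08%, 1.74%, 11.9%, 0% and 3.32%. Calls over all tested transcripts went from 152 to 50 in male versus female midgut and from 156 to 54 in the anterior. Of 36 values of the 4 called members under alternatives, 18 lost the call. Signal over background was not measurable from ratios, and cardia versus whole midgut is the least reliable comparison.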
